A study of Mus musculus with 9 samples.

Results

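The outermost layer of the epidermis is built by a set of enzymes and secreted proteins that keratinocytes make in the upper living layers. The expression of 8 such genes, all lying outside the chromosome 3 complex that holds most cornified envelope genes, was followed in mouse ear skin. They are the secreted protein genes Sbsn (suprabasin), Dmkn (dermokine) and Krtdap (keratinocyte differentiation-associated protein), the protease genes Casp14 (caspase-14) and Asprv1 (a retroviral-like aspartic protease), the cross-linking enzyme genes Tgm1 and Tgm3 (transglutaminases 1 and 3), and Cnfn (cornifelin, a protein of the envelope). The genes were taken by symbol, 8 of the 25124 genes in the deposited table, and all 8 were found and measured in every library. The rule that picked them names the genes and uses no measured value, but the genes were chosen with earlier results of these data known.

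The comparison is between C57BL/6 mice with and without a checkpoint inhibitor. All mice carried Staphylococcus epidermidis strain LM087, a bacterium of the skin surface, swabbed onto the ears every other day. In 4 libraries (replicates 1 to 4) the mice had also been treated with anti-CTLA-4, an antibody that blocks an inhibitory receptor of T cells and is used as a checkpoint inhibitor. In 5 libraries (replicates 1 to 5) they had the bacterium alone. Whole ear skin, a region of about 1 mm, was taken at day 8, so each library mixes epidermis with dermis, muscle, cartilage and infiltrating cells. The labels give no antibody dose, age or sex, and skin without the bacterium or with the antibody alone was not analysed here. Nothing in the labels ties a replicate number to its own animal. The p-values below therefore describe variation among these libraries, part of which may be technical.

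As background, cornification replaces the plasma membrane of a dying keratinocyte by a shell of cross-linked protein coated with lipid. Transglutaminases make the cross-links: TGM1 is anchored at the membrane and TGM3 is a soluble enzyme that is activated by cleavage, and loss of TGM1 in humans causes a scaling skin disease, lamellar ichthyosis. Caspase-14 is unusual among caspases in acting in cornification and not in ordinary apoptosis, and ASPRV1 is likewise a protease of the granular layer. Suprabasin, dermokine and KRTDAP are secreted by suprabasal keratinocytes, and their genes lie side by side in a cluster of secreted epithelial proteins.

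That cluster is on chromosome 7. On mm10, Sbsn spans 30751471 to 30756134, Dmkn 30763756 to 30781066 and Krtdap 30787905 to 30791089, all on the plus strand, with 7622 and 6839 bases between neighbours. The others lie apart: Cnfn elsewhere on chromosome 7 (25367616 to 25369724, minus strand), Casp14 on chromosome 10 (78711995 to 78718293, minus), Tgm1 on chromosome 14 (55700009 to 55713492, minus), Tgm3 on chromosome 2 (130012340 to 130050399, plus) and Asprv1 on chromosome 6 (86628174 to 86629704, plus). The sequence around the start sites of Sbsn, Dmkn and Krtdap is shown because their groups did not overlap in TPM. For Krtdap that separation was within counting error. The choice used the measured values, so a motif shared by these 3 genes is a description only. RefSeq promoter windows on GRCm38.p6, the assembly of mm10, were matched for 8 of 8 genes. Each line runs from 150 bases before the start site through the first 10 transcribed bases, at chr7:30751321-30751480 for Sbsn, chr7:30763606-30763765 for Dmkn and chr7:30787755-30787914 for Krtdap. Capitals mark the AP-1 motif TGANTCA and, in Krtdap alone, the TATA box TATAAA.
Sbsn: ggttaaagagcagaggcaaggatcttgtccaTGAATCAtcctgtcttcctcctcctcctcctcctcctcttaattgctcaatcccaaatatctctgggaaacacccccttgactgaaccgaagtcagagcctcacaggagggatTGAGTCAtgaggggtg
Dmkn: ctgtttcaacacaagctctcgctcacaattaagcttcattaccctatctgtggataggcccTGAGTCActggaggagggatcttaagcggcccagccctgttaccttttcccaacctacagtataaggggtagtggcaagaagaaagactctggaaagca
Krtdap: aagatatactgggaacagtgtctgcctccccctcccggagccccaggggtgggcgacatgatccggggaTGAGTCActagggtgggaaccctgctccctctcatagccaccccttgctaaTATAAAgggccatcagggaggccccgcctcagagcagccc

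Each of these stretches holds the AP-1 letters. Sbsn has them starting 119 and 6 bases before the start site, Dmkn 89 bases before it, and Krtdap 81 bases before it, with its TATA box 30 bases before it. Dmkn has another RefSeq start inside the gene, and its window at chr7:30776155-30776454 has the AP-1 letters 82 bases before that start. Both strands were searched from 250 bases before to 50 after each start, and TGANTCA reads the same on both. The share of all 32851 RefSeq windows that hold it was 7.81%. None of the other 5 genes had it. GGGNGTGG, the core bound by Kruppel-like factors, was in the windows of Casp14 and Cnfn and in 17.6% of all windows. TATAAA was in the windows of Krtdap and Tgm3 and in 13.6% of all windows. AACNNGTT, the grainyhead-like core, was in 0 of the 8 genes' windows and in 4.20% of all windows. The windows of Asprv1 and Tgm1 held none of these letters. The searched motifs do not overlap each other in the stretches shown. A match is a description of the letters and shows no binding. Whether any motif goes with a difference between the groups was not tested.

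Values are TPM as deposited. TPM multiplied by the gene's genomic span, introns included, fell on whole multiples of 1 number per library, so read numbers could be recovered. Of 2844 to 2989 low genes per library, 100.0% were whole within 0.1 read, against 21.9 to 23.5% when the length of the exons was used. The libraries held between 10213773 and 13868671 reads in genes. TPM on this scale compares 1 gene between libraries but not genes with each other, so levels of different genes are given below per kilobase of exon and scaled to the recovered reads of the library (exonic RPKM). The 8 genes had at least 571 reads in any library, so that counting error was at most 4.19% of a value, against 8.56 to 28.6% between libraries of a group. Intervals from counts cover counting error only. Ribosomal RNA entries took 30.6 to 40.2% of the listed TPM, most of all in anti-CTLA-4 replicate 1.

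Of the 8 genes, 2 fell with anti-CTLA-4, Sbsn and Dmkn, and 0 rose. The comparison used limma on log2(TPM + 1) with Benjamini-Hochberg adjustment over 15704 genes and a threshold of 0.05, and log2 fold changes are anti-CTLA-4 minus the bacterium alone, with their standard error. It called 11.6% of all genes, 7.16% higher and 4.48% lower. At an unadjusted p under 0.05 it had 4145 genes. The median log2 fold change was -0.33 over the 8 genes, of which 6 were negative, and -0.014 over all genes tested, of which 53.0% were negative. The groups did not overlap, with anti-CTLA-4 lower, in Sbsn, Dmkn and Krtdap, against 6.39% of all genes. In whole tissue, fewer cells of a type and less RNA per cell cannot be told apart.

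**Figure D1:**
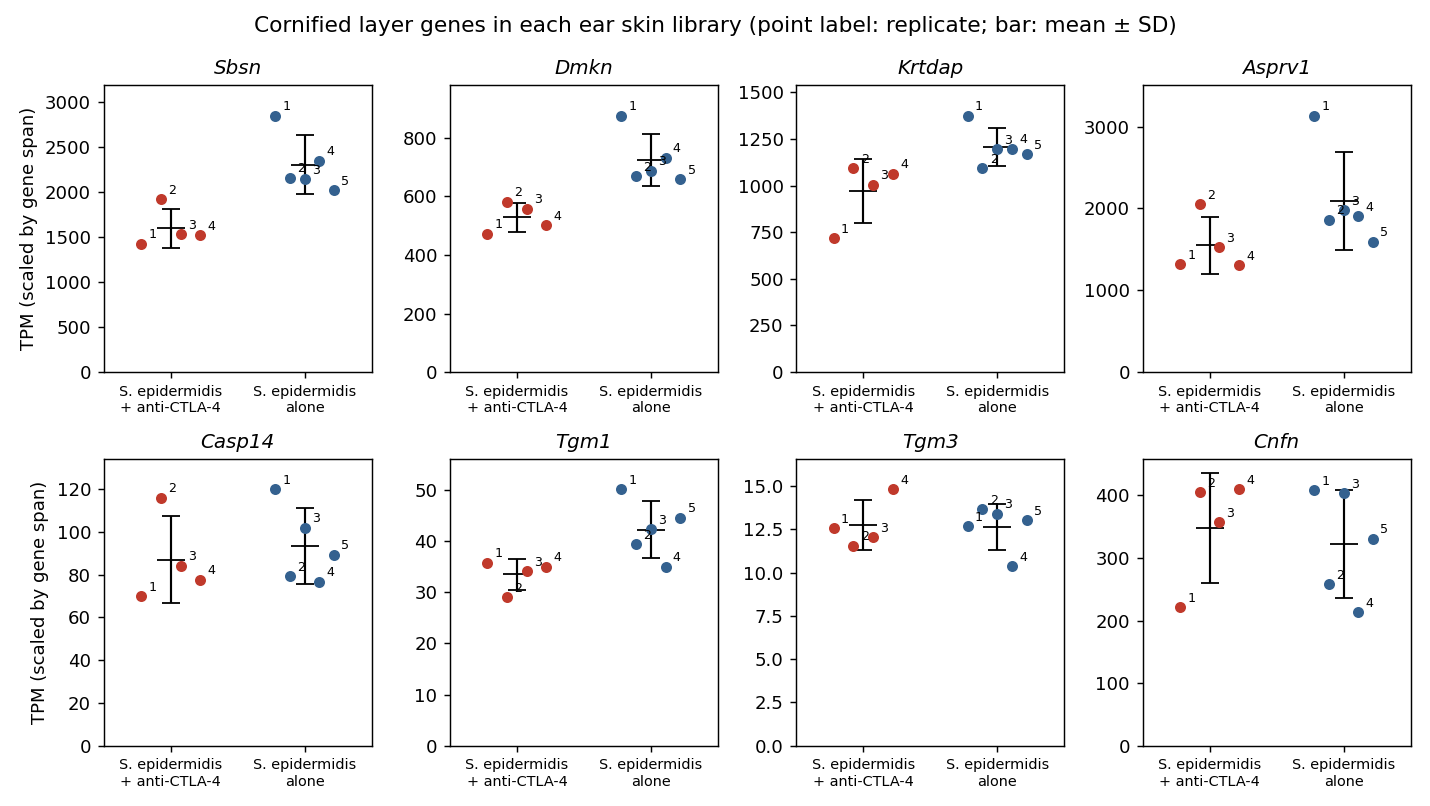
TPM (linear axis from 0, scaled by gene span) of the 8 genes in each library; red points are anti-CTLA-4 libraries and blue points libraries with the bacterium alone, numbered by replicate, with bars at the mean ± SD. Sbsn and Dmkn are lower in all 4 anti-CTLA-4 libraries than in any of the 5 others, Krtdap only by less than 1 TPM, and the other 5 genes overlap.

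Suprabasin came lowest relative to the bacterium alone. Sbsn had 1428, 1921, 1534 and 1521 TPM in anti-CTLA-4 replicates 1 to 4, against 2852, 2163, 2145, 2353 and 2025 TPM in replicates 1 to 5 with the bacterium alone. Every anti-CTLA-4 library lay below every other, although anti-CTLA-4 replicate 2 came near the lowest of the others. The means were 1601 ± 218 TPM with anti-CTLA-4 and 2308 ± 327 TPM with the bacterium alone (SD, n = 4 and n = 5), a percent change of -30.6. The log2 fold change was -0.53 ± 0.13 (95% interval -0.81 to -0.24, limma adjusted p = 0.0286). An exact two-sided permutation test gave p = 0.0159, the smallest that 4 against 5 libraries allow.

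Dermokine moved alongside it. Dmkn had 472.6, 582.0, 558.2 and 501.7 TPM in anti-CTLA-4 replicates 1 to 4, against 876.1, 669.5, 688.3, 733.1 and 660.0 TPM with the bacterium alone. Again all 4 anti-CTLA-4 libraries lay below the 5 others. The means were 528.6 ± 50.3 TPM with anti-CTLA-4 and 725 ± 88.8 TPM with the bacterium alone (SD, n = 4 and n = 5), a percent change of -27.1. The log2 fold change was -0.45 ± 0.10 (95% interval -0.68 to -0.22, limma adjusted p = 0.0228, exact permutation p = 0.0159).

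Both calls rest on the full set of libraries. With 1 library left out at a time, Sbsn kept a log2 fold change between -0.62 and -0.45 but its limma adjusted p passed 0.05 in 5 of 9 cases, at 0.0706, 0.0684 and 0.0730 without anti-CTLA-4 replicates 1, 3 and 4 and at 0.0543 and 0.0615 when replicate 2 or 4 of the bacterium alone was dropped. Dmkn kept between -0.50 and -0.38 and lost the call in 3 of 9 cases, with limma adjusted p of 0.0567 and 0.0607 without anti-CTLA-4 replicates 1 and 4 and 0.0514 without replicate 4 of the bacterium alone.

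Krtdap, the third gene of the cluster, was lower by less and did not pass the test. It had 717.1, 1093.1, 1004 and 1064 TPM in anti-CTLA-4 replicates 1 to 4, against 1375, 1093.9, 1196, 1198 and 1167 TPM with the bacterium alone. The 2 groups were separated by less than 1 TPM, between replicate 2 of each. That gap is within counting error: the exact Poisson 95% intervals were 1063 to 1124 TPM for anti-CTLA-4 and 1066 to 1122 TPM for the bacterium alone, and per recovered read the groups overlapped. The means were 970 ± 172 TPM with anti-CTLA-4 and 1206 ± 103 TPM with the bacterium alone (SD, n = 4 and n = 5). The log2 fold change was -0.33 ± 0.13 (95% interval -0.62 to -0.03, limma adjusted p = 0.144, exact permutation p = 0.0159 unadjusted), and -0.19 without anti-CTLA-4 replicate 1, which stood well below the other 3.

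Within each library, the 3 cluster genes were also set against each other as differences of log2(TPM + 1), since such a difference does not depend on the library's total. Sbsn minus Krtdap was 0.73 ± 0.21 with anti-CTLA-4 and 0.93 ± 0.11 with the bacterium alone. Dmkn minus Krtdap was -0.86 ± 0.20 with anti-CTLA-4 and -0.74 ± 0.07 with the bacterium alone, and Dmkn minus Sbsn was -1.59 ± 0.11 with anti-CTLA-4 and -1.67 ± 0.04 with the bacterium alone (SD, n = 4 and n = 5). The 3 differences moved by -0.20, -0.12 and 0.07 between groups, and exact permutation p-values were 0.143, 0.238 and 0.222, each 0.238 after Benjamini-Hochberg adjustment over the 4 pairs of genes compared. A shift of Sbsn and Dmkn beyond that of Krtdap was thus not detectable with these libraries, and the tests do not show that the 3 moved alike. Leaving out anti-CTLA-4 replicate 1 gave -0.21 for Dmkn minus Krtdap (exact permutation p = 0.0357), and leaving out replicate 2 gave 0.12 for Dmkn minus Sbsn (exact permutation p = 0.0357), both unadjusted and the smallest that 3 against 5 libraries allow.

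Other genes around the cluster were not called. Within 100 kb of it the table has tested values for Haus5, Tmem147, Gapdhs and Ffar2, with log2 fold changes of 0.24, -0.09, -0.33 and 0.51 and limma adjusted p-values of 0.0938, 0.727, 0.148 and 0.191. Over all 8 genes, 51 neighbours within 100 kb were listed and 36 tested, with Sbsn, Dmkn and Krtdap counted as neighbours of each other. Of the 36 tested, 4 rose and 2 fell, the 2 being Sbsn and Dmkn themselves. Over all tested genes 7.16% were called higher and 4.48% lower. Of the 4 that rose, 3 lie near Tgm1 on chromosome 14: Irf9 (an interferon-response transcription factor), Gmpr2 and Ripk3 (a kinase of inflammatory cell death). Ripk3 had 15.5 ± 2.77 TPM with anti-CTLA-4 and 8.23 ± 2.00 TPM with the bacterium alone (SD, n = 4 and n = 5), a log2 fold change of 0.85 (limma adjusted p = 0.0152). The other is Ceacam1 (a cell adhesion molecule), near Cnfn, at 0.45 (limma adjusted p = 0.0485, lost in 8 of 9 cases with a library left out), and the call of Irf9 at 0.53 was lost in 2 of 9 such cases (limma adjusted p = 0.0206).

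The transglutaminases differed from each other in how their values lay. Tgm1 had 35.77, 28.99, 34.11 and 35.02 TPM in anti-CTLA-4 replicates 1 to 4, against 50.08, 39.37, 42.27, 35.001 and 44.55 TPM with the bacterium alone. The groups overlapped only through replicate 4 of the bacterium alone, which lay among the anti-CTLA-4 values. The means were 33.5 ± 3.07 TPM with anti-CTLA-4 and 42.3 ± 5.64 TPM with the bacterium alone (SD, n = 4 and n = 5), and the log2 fold change was -0.32 ± 0.10 (95% interval -0.56 to -0.09). This did not pass the test (limma adjusted p = 0.0809, exact permutation p = 0.0476 unadjusted). With 1 library left out at a time it stayed over 0.05 in 8 of 9 cases (limma adjusted p up to 0.183). The exception was the fit without that overlapping library (limma adjusted p = 0.0429), whose removal favours a difference.

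Tgm3 had 12.57, 11.55, 12.05 and 14.79 TPM in anti-CTLA-4 replicates 1 to 4, against 12.69, 13.66, 13.39, 10.35 and 13.02 TPM with the bacterium alone. Both the highest value, anti-CTLA-4 replicate 4, and the lowest, replicate 4 of the bacterium alone, stood outside a narrow common range. The means were 12.7 ± 1.43 TPM with anti-CTLA-4 and 12.6 ± 1.32 TPM with the bacterium alone (SD, n = 4 and n = 5) and the log2 fold change was 0.01 ± 0.10 (limma adjusted p = 0.949, exact permutation p = 0.921). Its 95% interval, -0.20 to 0.23, bounds the difference these data allow. The microRNA gene Mir6339 lies on the opposite strand within the span of Tgm3, and the sources used here do not say whether counting used the strand.

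Set against each other within a library, Tgm1 minus Tgm3 was 1.33 ± 0.12 with anti-CTLA-4 (1.19 to 1.44) and 1.66 ± 0.16 with the bacterium alone (1.46 to 1.90) on the log2(TPM + 1) scale (SD, n = 4 and n = 5). The groups did not overlap. The difference of -0.34 had an exact permutation p of 0.0159, the smallest possible, and 0.0635 after Benjamini-Hochberg adjustment over the 4 pairs of genes, so it did not pass the corrected threshold. With any 1 library left out the unadjusted exact permutation p was 0.0286 or 0.0357, the smallest those designs allow. Groups that do not overlap stay apart when a library is dropped, so these runs add no support. The gap between 1.44 and 1.46 is narrow. In anti-CTLA-4 replicate 1 the exact Poisson 95% intervals were 33.08 to 38.61 TPM for Tgm1 and 11.63 to 13.58 TPM for Tgm3. On the log2 scale the interval of either gene alone was wider than the gap, so the gap lies within counting error.

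**Figure D2:**
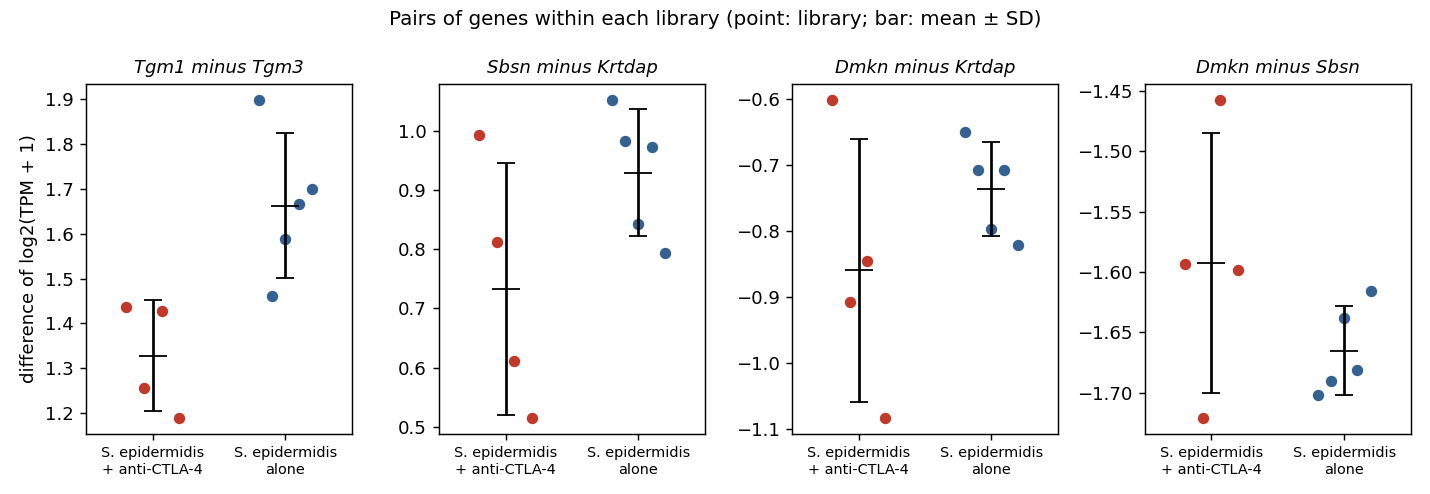
Difference of log2(TPM + 1) between 2 genes of the same library for 4 pairs; red points are anti-CTLA-4 libraries, blue points the bacterium alone, bars the mean ± SD, and the axes do not start at 0. Tgm1 minus Tgm3 spans 1.19 to 1.44 in the anti-CTLA-4 libraries and 1.46 to 1.90 in the others, while the 3 pairs of chromosome 7 neighbours overlap between groups.

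The proteases and cornifelin overlapped between groups. Asprv1 had 1318, 2055, 1523 and 1309 TPM in anti-CTLA-4 replicates 1 to 4, against 3134, 1860, 1978, 1908 and 1591 TPM with the bacterium alone. Replicate 1 of the bacterium alone stood far above all others, and anti-CTLA-4 replicate 2 lay inside the range of the bacterium alone. The means were 1551 ± 350 TPM with anti-CTLA-4 and 2094 ± 599 TPM with the bacterium alone (SD, n = 4 and n = 5), a log2 fold change of -0.42 ± 0.21 (95% interval -0.88 to 0.05, limma adjusted p = 0.235, exact permutation p = 0.111). Without replicate 1 of the bacterium alone it was -0.26.

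Casp14 had 69.9, 116.0, 84.2 and 77.6 TPM in anti-CTLA-4 replicates 1 to 4, against 119.7, 79.3, 101.9, 76.7 and 89.2 TPM with the bacterium alone. The groups were interleaved, with a high library in each. The log2 fold change was -0.11 ± 0.17 (95% interval -0.49 to 0.27, limma adjusted p = 0.737, exact permutation p = 0.571), on means of 86.9 ± 20.2 TPM with anti-CTLA-4 and 93.4 ± 17.8 TPM with the bacterium alone (SD, n = 4 and n = 5).

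Cnfn had 221.4, 404.6, 357.0 and 409.3 TPM in anti-CTLA-4 replicates 1 to 4, against 407.8, 258.1, 403.2, 213.6 and 330.8 TPM with the bacterium alone. High and low values occurred in both groups, the lowest in replicate 4 of the bacterium alone and in anti-CTLA-4 replicate 1. The means were 348 ± 87.7 TPM with anti-CTLA-4 and 323 ± 86.4 TPM with the bacterium alone (SD, n = 4 and n = 5), a log2 fold change of 0.11 ± 0.24 (95% interval -0.43 to 0.65, limma adjusted p = 0.811, exact permutation p = 0.651). This is the widest interval of the 8 genes.

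Per kilobase of exon, the 8 genes ranged from abundant secreted proteins to scarce transglutaminases. On the exonic RPKM scale, Krtdap had 586 ± 100 with anti-CTLA-4 and 713 ± 69.3 with the bacterium alone, and Dmkn 538.5 ± 43.4 with anti-CTLA-4 and 722 ± 91.4 with the bacterium alone (SD, n = 4 and n = 5, as for the levels that follow). Their library ranges overlapped, so these 2 cannot be ordered. Sbsn came next, at 266 ± 37.4 with anti-CTLA-4 and 374 ± 53.5 with the bacterium alone. It overlapped Asprv1, at 198 ± 44.7 with anti-CTLA-4 and 261 ± 77.0 with the bacterium alone. Cnfn, at 132 ± 32.7 with anti-CTLA-4 and 120 ± 34.7 with the bacterium alone, lay below Asprv1 in both groups with no overlap. It lay above Casp14, likewise with none, at 29.5 ± 6.88 with anti-CTLA-4 and 31.0 ± 6.52 with the bacterium alone. Tgm1 followed at 18.5 ± 1.89 with anti-CTLA-4 and 22.8 ± 3.61 with the bacterium alone, and Tgm3 at 15.2 ± 1.94 with anti-CTLA-4 and 14.7 ± 1.90 with the bacterium alone. The order of the 2 transglutaminases overlapped in the anti-CTLA-4 libraries and not in the others, where Tgm1 overlapped Casp14. These levels take all recovered reads as exonic, since the sources used here do not say whether reads in introns were counted.

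**Figure D3:**
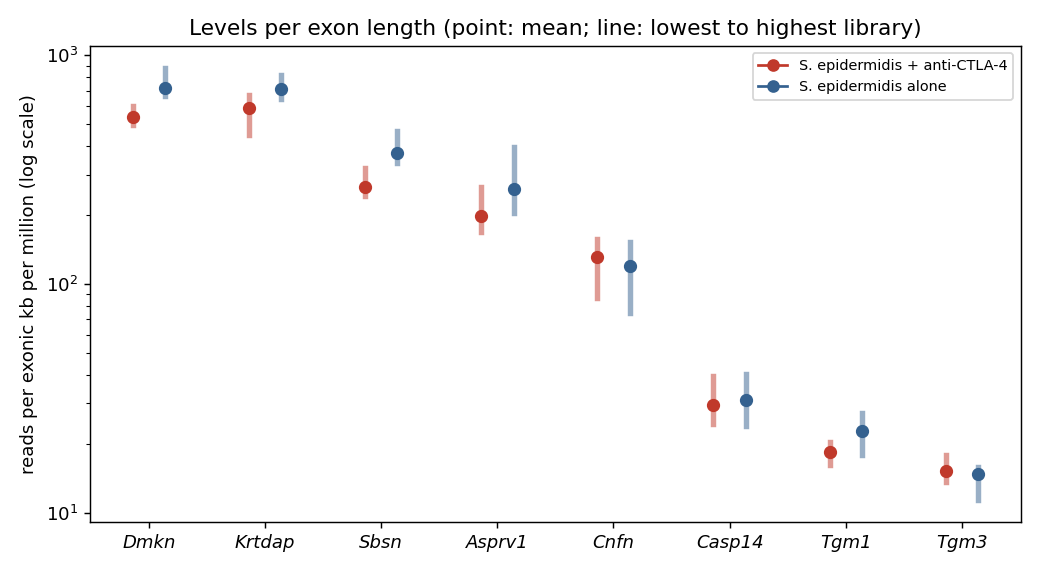
Exonic RPKM from recovered reads (log axis) for the 8 genes, ordered by level with the bacterium alone; red is anti-CTLA-4, blue the bacterium alone, points are means and lines run from the lowest to the highest library. Dmkn and Krtdap are the most abundant and Tgm1 and Tgm3 the least, in both groups.

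Libraries carried much of the variation in common. Replicate 1 of the bacterium alone was the highest of all 9 libraries for 6 of the 8 genes, all but Tgm3 and Cnfn, and anti-CTLA-4 replicate 1 was the lowest of 9 for 4 of them, Casp14, Krtdap, Sbsn and Dmkn. After group means were removed, the correlation of each gene with the mean of the other 7 was 0.89 for Casp14, 0.78 for Dmkn, 0.75 for Krtdap and Cnfn, 0.74 for Asprv1 and 0.72 for Sbsn, but 0.23 for Tgm1 and 0.01 for Tgm3 (Pearson r over 9 libraries). Because the points share library composition and scaling, these are descriptions. The tested genes whose deviations were most like the mean of the 8 were Hrnr (hornerin, an envelope protein), with r = 0.974, the kallikrein protease genes Klk7, Klk8 and Klk9, with 0.968, 0.966 and 0.958, and Il1f5 (an interleukin-36 receptor antagonist), with 0.963, over the same 9 libraries. None of these 5 was called between groups, with limma adjusted p from 0.0583 to 0.639.

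As a reference for keratinocyte RNA, the log2(TPM + 1) of the 8 genes was taken relative to the mean of 10 basal keratinocyte genes. Within groups this mean did not follow the 8 genes where they varied most. In replicate 1 of the bacterium alone the 8 genes deviated from their group mean by 0.30 on average and the basal mean by -0.04. In anti-CTLA-4 replicate 1 the values were -0.22 and -0.03. Whether the basal mean tracks the epidermal RNA of a library was not tested. Of these 10 genes, 1 fell (Col17a1, a hemidesmosome collagen, limma adjusted p = 0.0319, lost when any of 6 of the 9 libraries was left out) and 0 rose, with a median log2 fold change of -0.19 and 7 of the 10 negative. The defining keratins were not called: Krt5 had 3277 ± 329 TPM with anti-CTLA-4 and 2946 ± 283 TPM with the bacterium alone, and Krt14 3642 ± 274 TPM with anti-CTLA-4 and 3371 ± 435 TPM with the bacterium alone (SD, n = 4 and n = 5). Summed TPM of the list was 7261 to 8545 with anti-CTLA-4 and 6828 to 8136 with the bacterium alone, and none of its genes was at 0 in any library. Relative to all 10 genes, Dmkn differed by -0.32 (exact permutation p = 0.0317, over 0.05 in 7 of 9 cases with a library left out) and Sbsn by -0.39 (exact permutation p = 0.0635). Krtdap, Tgm1 and Asprv1 differed by -0.20, -0.19 and -0.28, with exact permutation p of 0.270, 0.254 and 0.286. Casp14, Tgm3 and Cnfn were at 0.03, 0.15 and 0.25 (exact permutation p = 0.905, 0.333 and 0.397). Krt5 and Krt14, which were among the 3 of the 10 genes with a positive log2 fold change (0.15 and 0.12), gave lower values for every gene when used alone. A change of reference shifts all 8 genes by the same amount, so this is a property of the reference and not of each gene. Relative to these keratins Sbsn, Dmkn, Krtdap and Tgm1 differed by -0.66, -0.59, -0.47 and -0.46, with exact permutation p of 0.0159, 0.0159, 0.0317 and 0.0159. Asprv1 was at -0.55 (exact permutation p = 0.0635), and Casp14, Tgm3 and Cnfn, whose sign turned with the reference, were at -0.24, -0.12 and -0.02 (exact permutation p = 0.222, 0.159 and 0.905). Each of the 8 genes was set against both references, and these p-values are unadjusted.

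**Figure D4:**
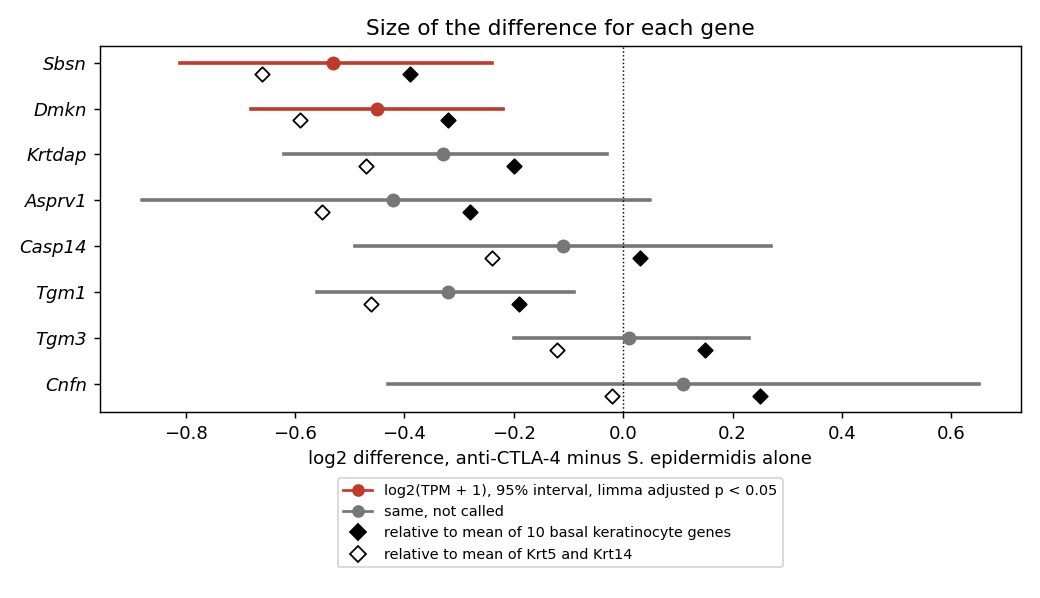
Log2 difference, anti-CTLA-4 minus the bacterium alone, for each gene: circles are log2(TPM + 1) with their 95% interval from limma, red where the adjusted p was under 0.05, and diamonds are the same relative to the mean of 10 basal keratinocyte genes (black) or of Krt5 and Krt14 (white). Sbsn (-0.53) and Dmkn (-0.45) are the called genes. The change of reference shifts every gene by the same amount, so each white diamond lies left of the black one. It lies on the other side of 0 for Casp14, Tgm3 and Cnfn.

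Of the proteins that transglutaminases join, 4 of 25 tested genes fell and 1 rose (26 listed, Sprr3 being at 0 in every library), with a median log2 fold change of -0.30. The direction was mixed, with 16 of the 25 negative and 9 positive. Flg2, a filaggrin-family protein of the granular layer, had 234 ± 62.5 TPM with anti-CTLA-4 and 562 ± 153 TPM with the bacterium alone, a log2 fold change of -1.26 (limma adjusted p = 0.0117). Periplakin (Ppl) fell by 0.37 on the log2 scale (limma adjusted p = 0.0145), and both held with any 1 library left out. Envoplakin (Evpl) and Krt2 fell as well, by 0.30 and 0.53 on the log2 scale, though their calls were lost in 6 and 8 of the 9 cases (limma adjusted p = 0.0266 and 0.0324; Krt2 was named after its values were seen). Krt1, a suprabasal keratin, rose instead, with 1506 ± 301 TPM with anti-CTLA-4, against 792 ± 229 TPM with the bacterium alone (limma adjusted p = 0.0245, lost in 4 of 9 cases). Loricrin (Lor), involucrin (Ivl) and Krt10 were not called, at log2 fold changes of -0.54, -0.43 and -0.40 (limma adjusted p = 0.0747, 0.131 and 0.0809).

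Relatives of the enzymes were higher or not called. Of 8 other transglutaminase family genes 4 could be tested, and 1 rose: Tgm2, the widely expressed tissue transglutaminase, had 11.6 ± 2.64 TPM with anti-CTLA-4 and 7.82 ± 0.795 TPM with the bacterium alone (SD, n = 4 and n = 5; log2 fold change 0.49, limma adjusted p = 0.0470, lost in 17 of 25 alternatives, including all 4 other scalings and 8 of 9 cases with a library left out). Tgm5, which acts in the upper epidermis, was at -0.06 (limma adjusted p = 0.753). Of 9 other caspases, 4 rose and 0 fell, with a median log2 fold change of 0.30, all 9 being positive. Casp6, an executioner caspase, held with any 1 library left out, at 9.24 ± 0.533 TPM with anti-CTLA-4 against 6.46 ± 0.948 TPM with the bacterium alone (log2 fold change 0.47, limma adjusted p = 0.0163). Casp1 and Casp4, which act in inflammasome signalling, and Casp8, an initiator of cell death, rose by 0.74, 0.76 and 0.31 on the log2 scale (limma adjusted p = 0.0227, 0.0394 and 0.0222), and lost the call in 2, 7 and 3 of 9 cases. That these caspases moved differently from Casp14 was not tested.

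In the remaining parts of the cornification program, called genes were lower. Of 19 lipid envelope enzymes, all tested, 10 fell and 0 rose, with a median log2 fold change of -0.37. Aloxe3, a lipoxygenase of the lipid envelope, had 19.6 ± 1.36 TPM with anti-CTLA-4 and 31.4 ± 3.50 TPM with the bacterium alone (log2 fold change -0.65, limma adjusted p = 0.00295). Of 10 desmosome and corneodesmosome genes 7 fell and 0 rose, with a median of -0.33, among them Dsg1a, a desmosomal cadherin, by 0.49 on the log2 scale (limma adjusted p = 0.00931). Among 18 tested of 21 proteases, inhibitors and modifiers, 2 fell and 0 rose, with a median of -0.20: Serpinb7, a protease inhibitor of the upper epidermis, by 0.82 and Prss8, a channel-activating protease, by 0.53 on the log2 scale (limma adjusted p = 0.00291 and 0.0358, Prss8 lost in 5 of 9 cases). Of 16 transcription factors of epidermal differentiation 6 fell and 0 rose, with a median of -0.20. Grhl3, a grainyhead-like factor of barrier formation, had 21.9 ± 1.41 TPM with anti-CTLA-4 and 35.4 ± 1.09 TPM with the bacterium alone (log2 fold change -0.67, limma adjusted p = 0.00148), and Grhl1 and Ovol1 fell by 0.43 and 0.47 on the log2 scale (limma adjusted p = 0.00994 and 0.0166). Aloxe3, Dsg1a, Serpinb7, Grhl3, Grhl1 and Ovol1 kept their calls with any 1 library left out. Each list also had positive log2 fold changes, none of them called. These were 1 of the 19 lipid envelope enzymes and 1 of the 10 desmosome and corneodesmosome genes. Among the proteases, inhibitors and modifiers 4 of 18 were positive, and among the transcription factors 2 of 16. The lists were chosen with earlier results of these data known, and these counts are a description of them.

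Markers of other cell types moved between the same libraries. Of 14 T cell genes 12 rose and 0 fell, with a summed level of 95.5 to 121 TPM with anti-CTLA-4 and 31.5 to 49.8 TPM with the bacterium alone. Of 12 monocyte and macrophage genes 10 rose and 0 fell, with sums of 662 to 1004 TPM with anti-CTLA-4 and 352 to 542 TPM with the bacterium alone. No gene of these 2 lists was at 0 in any library. Of 20 hair follicle genes 10 could be tested, all 10 had a negative log2 fold change (median -0.50), 4 fell and 0 rose, with sums of 165 to 214 TPM with anti-CTLA-4 and 231 to 264 TPM with the bacterium alone, and 7 of the 20 were at 0 in at least 1 library. Most of these sums came from Sox9 (means of 78.9 TPM with anti-CTLA-4 and 93.9 with the bacterium alone) and Gata3 (87.5 and 98.5). Neither was called, and Gata3 is also among the epidermal transcription factors above. All 12 skeletal muscle genes had a negative log2 fold change (median -0.38, against -0.33 over the 8 genes), 1 fell and 0 rose, with sums of 1210 to 1732 TPM with anti-CTLA-4 and 1403 to 2222 TPM with the bacterium alone, and none was at 0. The 4 wound keratins were not called, at a median log2 fold change of 1.58: Krt6b had 245 ± 86.9 TPM with anti-CTLA-4 and 59.0 ± 47.8 TPM with the bacterium alone (limma adjusted p = 0.0529). The part of these cell types in the differences of Sbsn and Dmkn was not tested. With the mean of the basal, muscle or hair follicle list as a covariate, their log2 fold changes were between -0.54 and -0.45 for Sbsn and between -0.49 and -0.35 for Dmkn, and neither was called (limma adjusted p from 0.197 to 0.518), in fits that called at most 1 gene in either direction.

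**Figure D5:**
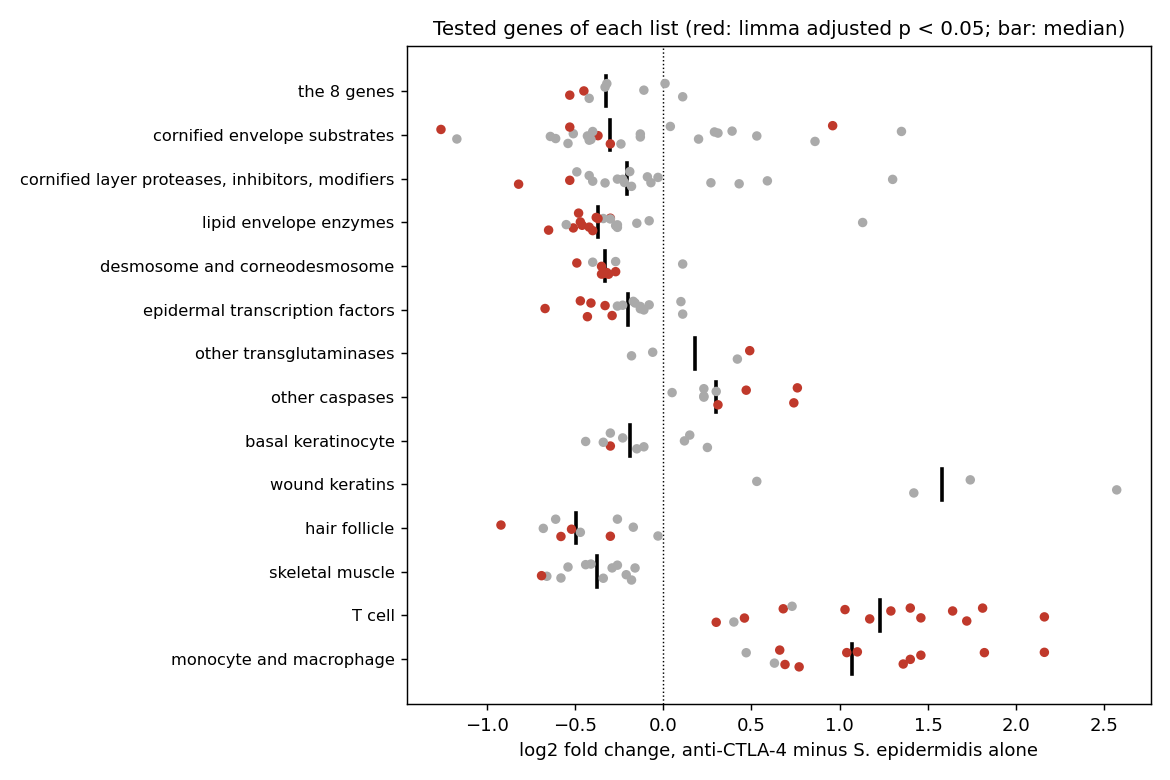
Log2 fold change, anti-CTLA-4 minus the bacterium alone, of each tested gene by list, with the 8 genes on top; points are genes, red where the limma adjusted p was under 0.05, and bars are list medians. The median of the 8 genes (-0.33) lies near those of the lipid envelope enzymes (-0.37) and desmosome genes (-0.33), and also of the skeletal muscle genes (-0.38). The T cell list has the highest median among immune lists shown (1.23).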

How the data were processed

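The data are 9 RNA-seq libraries from total RNA of mouse ear skin, made from 500 ng with a Tecan kit and sequenced with 75 cycles, per the labels' protocols. Per the submitters' processing notes, the authors listed STAR, HOMER and DESeq2 and the build mm10; their versions and roles, and the annotation, are not stated in the sources used here. The deposited table gives TPM per gene and library, and its listed genes sum to 696393 to 728933 TPM per library. The table's length column equals end minus start in 99.2% of rows, and read numbers were recovered from TPM multiplied by it. Exon lengths came from GENCODE M21.

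Groups and replicate numbers came from the sample titles. The 15704 genes that reached 1 TPM in 4 or more libraries entered limma 3.58.1 (R 4.3.3) on the log2(TPM + 1) scale (moderated linear model, variance trend, no covariate), two-sided, adjusted by the Benjamini-Hochberg method; a pseudocount of 1 understates changes of low genes. Exact permutation tests ran over all splits into 4 and 5 libraries in SciPy 1.17.1. The script was tested on simulated data. Alternatives were other pseudocounts (0.1, 0.5), filters, scalings, variance settings, covariates, the replicate number as a block, each library left out, a threshold of 0.1, and limma-voom on recovered reads, which was chosen after seeing the data.

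The 8 genes and the 20 other lists were chosen with earlier results of these data known. The naming rule took the 8, up to 4 per described list by smallest p, a few set relatives and substrates (Tgm2, Tgm5, Lor, Ivl, Krt1, Krt10, Krt5, Krt14), the 5 genes most alike, and called neighbours within 100 kb. Beyond this rule, neighbours not called near the chromosome 7 cluster and Tgm3 were also named. Krt2, Sox9 and Gata3 were named after their values were seen. The sebaceous gland, Langerhans and dendritic cell, fibroblast, endothelial, adipocyte, cartilage, and melanocyte and Schwann cell lists had 1, 0, 0, 0, 1, 0 and 0 genes lower and 0 higher.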

Additional observations from a re-analysis of the deposited data

Results flagged for a closer look

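Gaps within groups were checked for the 8 genes and the list means, 58 groups in all, of which chance alone sets apart about 1 in 20; 2 had a library far from the rest. Tgm3 in replicate 4 of the bacterium alone was 3.50 on the log2(TPM + 1) scale, with the other 4 libraries of that group between 3.77 and 3.87. Without it the log2 fold change of Tgm3 was -0.05 (limma adjusted p = 0.745). The desmosome and corneodesmosome list averaged 7.87 in replicate 1 of the bacterium alone, with the other 4 between 7.72 and 7.76. That library was also the highest of 9 for 6 of the 8 genes.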

How the results depend on the processing

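Sbsn and Dmkn stayed lower with anti-CTLA-4 in every alternative run, and 0 of the 8 genes was called higher in any. Of the 8 genes, 2 were called lower in the reported fit, 1 with no expression filter (Dmkn; Sbsn had a limma adjusted p of 0.0808), and 0 to 2 with 1 library left out. The labels do not say whether libraries with the same replicate number are paired. Deviations of libraries with the same number correlated at -0.00855, 0.018, -0.091 and -0.0933 for replicates 1 to 4. Libraries with different numbers were not compared in this way, so these values cannot decide on a pairing. With the replicate block 0 of the 8 genes was called (limma adjusted p = 0.119 for both), and over all genes 593 higher and 88 lower. With the basal, muscle and hair follicle covariates 0 of the 8 genes was called, and over all genes 0, 0 and 1 higher and 1, 1 and 1 lower, with 3013, 2285 and 1726 genes at an unadjusted p under 0.05 in limma, against 4145 in the reported fit.

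Over all genes the split was 1124 higher and 704 lower. It was 1314 and 1429 after quantile normalization, 1291 and 1323 at a common median, 1204 and 1306 without the 50 most abundant genes, and 1387 and 716 without the ribosomal RNA entries; all 4 scalings kept Sbsn and Dmkn called lower. A threshold of 0.1 gave 1260 lower. Leaving out 1 library gave 706 to 1094 higher and 337 to 703 lower. With limma-voom on recovered reads, chosen after seeing the data, 1833 were higher and 1139 lower, Sbsn at -0.49 and Dmkn at -0.42 (limma-voom adjusted p = 0.0049 and 0.00352). Without 1 library, Dmkn minus Krtdap ranged from -0.21 to -0.05 and Dmkn minus Sbsn from 0.03 to 0.12.

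Signs that turned were of values not called. Tgm3 was at -0.00692 without the 50 most abundant genes, -0.03 with array weights, -0.11 and -0.12 with the basal and muscle covariates, and -0.06 to 0.06 without 1 library. Cnfn was at -0.31 and -0.40 with these covariates and -0.03 to 0.32 without 1 library. Relative to Krt5 and Krt14 only, Casp14, Tgm3 and Cnfn were at -0.24, -0.12 and -0.02, and Casp14 relative to all 10 basal genes ranged from -0.13 to 0.13 without 1 library, being negative without anti-CTLA-4 replicate 2 (-0.13) and replicates 2 (-0.04) and 4 (-0.07) of the bacterium alone. Hrnr was at 0.04 with the hair follicle covariate, Tgm5 between -0.10 and 0.02 without 1 library (positive without anti-CTLA-4 replicate 1), Krt10 at 0.02 and Krt14 at -0.05 after quantile normalization, Krt14 at -0.08 and -0.01 with the basal and muscle covariates, and Krt15 at 0.02 with the basal covariate. The causes were not tested. Over 54 other genes taken by the naming rule and all alternatives, 1092 of 1347 values kept direction and side of the threshold, 201 lost the call, 47 gained it and 7 turned sign. Krt2 and the neighbours not called are not among these 54.

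With 4 and 5 libraries of 10213773 to 13868671 reads in genes, the spread between libraries and not counting limits the 8 genes. No untreated skin, antibody alone or sorted epidermis is in the comparison, and TPM is a share of the library, so a rise of abundant genes lowers the rest.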
